A study of Homo sapiens and Mus musculus with 20 samples.

Results

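The 10 genes described here encode secreted signals of inflammation: the chemokines CCL2, CXCL1, CXCL2, CXCL3, CXCL6 and CXCL8, the interleukins IL6, IL1A and IL1B, and the IL-6 family cytokine LIF. They were chosen by gene symbol from the deposited IMR90 tables, which together list 17554 genes. IMR90 is a line of human embryonic lung fibroblasts, and every library came from wild type cells of this 1 line. The experiments asked how agents aimed at histone lactylation, a mark made from lactate, change gene expression in these cells. Untreated Control2 libraries were compared with libraries from cells given A485, which blocks the acetyltransferase activity of p300. Untreated Control3 libraries were compared with MS-275, which blocks class I histone deacetylases, and untreated Control6 libraries with pyruvate. Each of the 6 groups held 2 libraries, numbered replicate 1 and replicate 2. The study's text states that pyruvate was added to senescent cells, while the labels give no passage, dose or time for any group.

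All 10 genes were listed in the A485 and MS-275 experiments. In the pyruvate experiment 7 were listed, and CXCL2, CXCL6 and IL1A had too few reads for that list. Every listed gene of the set passed the filter on low values, which asked for an average of 10 or more across a comparison's 4 libraries. Values are normalized read counts, meaning a gene's reads after division by the size factor of their library. Each experiment was normalized on its own, so levels are compared only within an experiment. Between 24179065 and 46971227 reads fell on the listed genes of a library. All 10 fibroblast markers examined were listed in every library, and leukocyte markers were nearly absent: 0 to 3 of 10 were listed, summing to at most 55.2 normalized counts, and PTPRC was not listed in any experiment.

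Chemokines are small secreted proteins that steer the migration of leukocytes. CXCL1, CXCL2, CXCL3, CXCL6 and CXCL8 bind CXCR2 on neutrophils, and CCL2 binds CCR2 on monocytes. IL1A and IL1B act through the receptor IL1R1 and, through MYD88 and NF-kB, switch on many of the other genes of this set. IL6 and LIF signal through the shared receptor chain gp130, encoded by IL6ST. Fibroblasts secrete several of these proteins when stimulated by cytokines and when they become senescent, as part of the senescence-associated secretory phenotype.

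The 5 CXC chemokine genes lie close together on chromosome 4 (hg38): CXCL8 at chr4:73740519-73743716, CXCL6 at chr4:73836640-73849064 and CXCL1 at chr4:73869393-73871308 on the plus strand, and CXCL3 at chr4:74036589-74038807 and CXCL2 at chr4:74097040-74099196 on the minus strand. IL1A at chr2:112773925-112784493 and IL1B at chr2:112829751-112836816 are neighbors on the minus strand of chromosome 2. IL6 lies at chr7:22725884-22732002 and CCL2 at chr17:34255274-34257208, both on the plus strand, and LIF at chr22:30240453-30246759 on the minus strand. Exons of IL6 overlap the antisense gene IL6-AS1 and the gene STEAP1B, which also lies on the opposite strand. Those of LIF overlap LIF-AS1 and LIF-AS2, and those of CXCL6 overlap the pseudogene PPBPP1. The strand setting of the counting is not stated, so reads of such partners cannot be told apart. The aligned transcripts of CXCL1 and CXCL2 were 90.9% identical, those of CXCL2 and CXCL3 83.6%, and those of CXCL1 and CXCL3 81.7%. Exact stretches of 50 bases shared between them made up at most 5.63% of a transcript, and none was shared with CXCL6.

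Start-site sequences are shown for the 5 CXC chemokine genes and IL6, because all 6 hold the letters of an NF-kB motif at a like distance from the start. Each line holds bases -150 to -1 relative to the RefSeq transcription start (GRCh38.p14), read 5′ to 3′ on the gene's strand, and capitals mark the motif matches. The capitals at the left end of the IL6 line are the last bases of a C/EBP match that begins at -155.
CXCL1 (chr4:73869243-73869392, plus strand): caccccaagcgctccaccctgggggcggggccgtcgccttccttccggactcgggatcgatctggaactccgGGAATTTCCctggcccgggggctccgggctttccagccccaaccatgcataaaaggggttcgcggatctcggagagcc
CXCL2 (chr4:74099196-74099345, minus strand): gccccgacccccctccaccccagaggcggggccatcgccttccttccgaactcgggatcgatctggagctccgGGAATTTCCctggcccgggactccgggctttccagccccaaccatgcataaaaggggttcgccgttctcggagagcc
CXCL3 (chr4:74038690-74038839, minus strand): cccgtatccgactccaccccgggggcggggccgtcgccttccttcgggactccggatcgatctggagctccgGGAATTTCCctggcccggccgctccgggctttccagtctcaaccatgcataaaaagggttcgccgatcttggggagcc
CXCL6 (chr4:73836528-73836677, plus strand): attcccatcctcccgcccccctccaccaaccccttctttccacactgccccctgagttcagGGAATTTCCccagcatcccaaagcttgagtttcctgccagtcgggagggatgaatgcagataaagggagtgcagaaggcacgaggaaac
CXCL8 (chr4:73740419-73740568, plus strand): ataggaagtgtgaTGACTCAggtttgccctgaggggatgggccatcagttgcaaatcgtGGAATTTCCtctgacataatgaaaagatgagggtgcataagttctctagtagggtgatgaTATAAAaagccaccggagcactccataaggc
IL6 (chr7:22727050-22727199, plus strand): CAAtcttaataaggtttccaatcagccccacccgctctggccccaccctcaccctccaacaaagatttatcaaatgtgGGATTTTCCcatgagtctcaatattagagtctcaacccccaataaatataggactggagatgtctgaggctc
The NF-kB letters GGANTTTCC were searched on both strands from 250 bases before to 50 bases after each start. They occurred in 6 of the 8 genes of the set with an entry, the 6 printed here, and in 1.64% of all 35116 windows. The first matched base lay at -78 in CXCL1 and CXCL3, -77 in CXCL2, -89 in CXCL6, -91 in CXCL8 and -72 in IL6. The AP-1 letters TGANTCA occurred in CXCL8 and IL1A (7.71% of all windows), and the C/EBP letters TTGCNNAA in CXCL2, IL6 and IL1B (10.5%). The TATA box letters TATAAA occurred in CXCL8 and IL1A (11.5%), beginning at -31 in CXCL8 and at -239 in IL1A. No matches overlapped one another in these windows. A match is a description of the letters and not evidence of binding. The map of motif positions shows the aligned NF-kB matches.

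**Figure D1:**
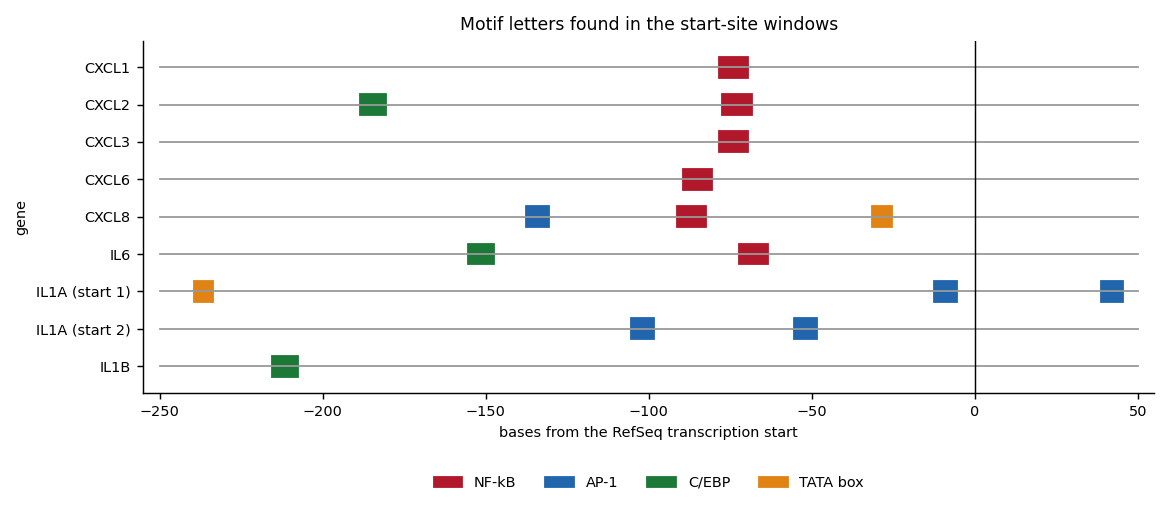
Positions of 4 motifs in the start-site windows of 8 genes. The x axis gives bases from the RefSeq transcription start, 1 line stands for each window (IL1A has 2 annotated starts), and colored boxes mark matches on either strand. The NF-kB matches of 6 genes all begin between -91 and -72.

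The 2 libraries of a group differed widely for most of these genes in the A485 and MS-275 experiments, and this sets what the comparisons can show. In Control2, untreated cells, CXCL8 had 305 normalized counts in replicate 1 and 4658 in replicate 2, and CXCL1 had 33.2 and 1610. In Control3, also untreated, CXCL8 had 171 and 9798, and CXCL1 had 60.4 and 2989. Replicate 2 exceeded replicate 1 by more than 1 on the log2 scale for 8 of 10 genes in Control2, 8 of 10 in A485, 8 of 10 in Control3 and 6 of 10 in MS-275. Over all genes tested the corresponding shares were 7.14%, 5.19%, 8.49% and 9.07%. None of the 10 genes was higher in replicate 1 by that margin in these 4 groups. CCL2 and LIF stood apart from the rest: they were above that gap in none of the 3 groups Control2, Control3 and MS-275, and only LIF was in A485. In the pyruvate experiment 0 of 7 genes had such a gap in either group. There replicate 2 was higher by that margin for 1.86% of all genes tested in Control6 and 1.1% in Pyruvate. The median gap of the set was 3.19 on the log2 scale in Control2, 4.41 in A485, 4.95 in Control3 and 1.33 in MS-275, against 0.09 in Control6 and -0.03 in Pyruvate. The labels do not say whether a replicate number marks a shared culture, day or sequencing run, and the part of the replicate difference in each result was not tested.

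**Figure D2:**
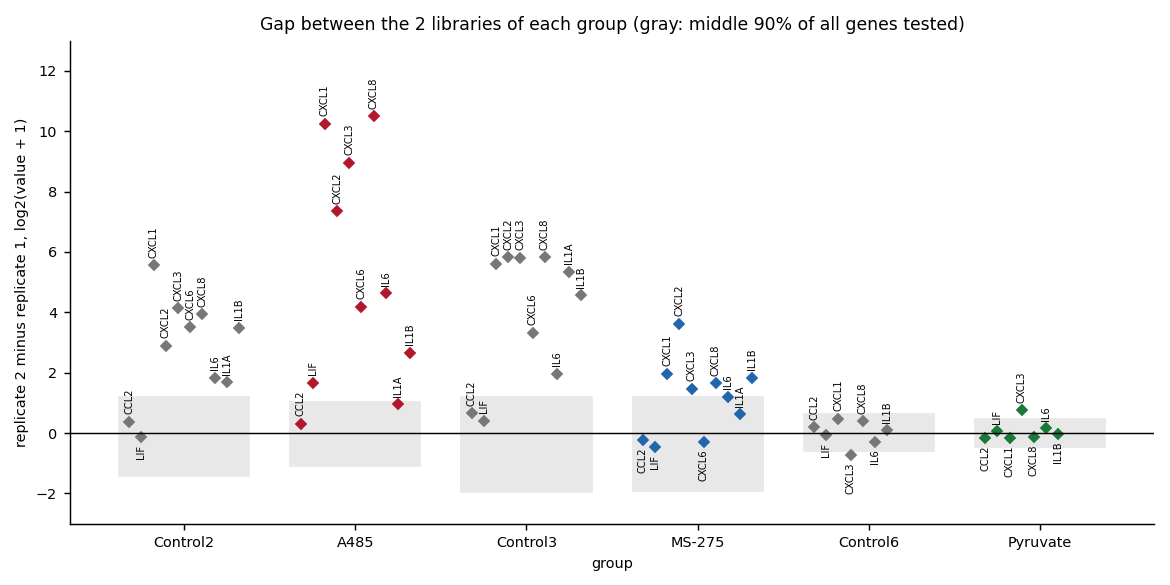
Gap between the libraries of each group, as replicate 2 minus replicate 1 of log2(value + 1) on the y axis, for the 6 groups on the x axis. Each diamond is 1 gene and the gray band holds the middle 90% of all genes tested. In Control2, A485 and Control3, 8 of 10 genes lie more than 1 above 0, while in Control6 and Pyruvate none does.

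In the A485 experiment CCL2, the monocyte attractant, was far lower in both A485 libraries than in both Control2 libraries. It had 2208 and 2846 normalized counts in the Control2 libraries and 13.5 and 16.9 in the A485 libraries. The means were 2527 ± 451 and 15.2 ± 2.43 (SD, n = 2), a 166-fold lower level with no overlap between the groups. The log2 fold change was -7.28 (SE 0.33, adjusted p = 0.000812), and the differences within replicate numbers 1 and 2 were -7.25 and -7.31. LIF, a gp130 cytokine, fell as well, from 4032 and 3673 to 131 and 420 normalized counts. Its mean was 14.0-fold lower after A485 (log2 fold change -4.03, SE 0.52, adjusted p = 0.00842). These were 2 of the 10 genes, both lower, and 7.06% of the 16084 genes tested were called lower and 3.31% higher. Calls needed both an adjusted p below 0.05 and a log2 fold change beyond 1 in either direction. Scaling to equal library totals in place of the size factors turned the calls over all genes from 31.9% higher to 64.6% higher, with a shift of the median to 0.40, and left both genes called lower. Without A485 replicate 1 the LIF value was -3.19 and without A485 replicate 2 it was -4.86, called in both, and without the intensity trend in the variance LIF was not called (adjusted p = 0.053).

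The interleukins were at lower counts in both A485 libraries than in both Control2 libraries, but none of the 3 passed the test. IL6 had 178 and 635 normalized counts in Control2 and 3.37 and 108 in A485. The A485 replicate 1 value stands for 4 reads, and the ranges of the groups did not overlap. The log2 fold change of IL6 was -3.95 (SE 1.49, adjusted p = 0.137). It was -1.63 without A485 replicate 1 (adjusted p = 0.379) and -6.27 without A485 replicate 2 (adjusted p = 0.0628). IL1B had 17.1 and 202 normalized counts in Control2, 0 in A485 replicate 1 and 5.34 in A485 replicate 2. The 0 allows up to 2.53 normalized counts in that library, taking 3 reads as the limit, for counting error only. Its log2 fold change was -4.59 (SE 1.42, adjusted p = 0.0872), and IL1B passed the threshold without Control2 replicate 1 (-6.33, adjusted p = 0.0479). It did not without A485 replicate 1 (-3.26, adjusted p = 0.352) or without A485 replicate 2 (-5.92, adjusted p = 0.154). IL1A, the other IL-1 agonist, had 15.0 and 50.2 normalized counts in Control2 and 5.06 and 10.7 in A485 (log2 fold change -1.77, SE 0.82, adjusted p = 0.208). CCL2, LIF, IL6, IL1A and IL1B were the 5 of 10 genes with both A485 libraries below both controls, an arrangement seen in 30.7% of all genes tested. None of the 10 had both A485 libraries above both controls, against 30.4% of all genes.

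The 5 CXC chemokines showed no such separation, because the A485 libraries lay on both sides of the controls. CXCL8, the main human neutrophil attractant, had 305 and 4658 normalized counts in Control2, 7.59 in A485 replicate 1 and 12409 in A485 replicate 2. CXCL1 had 33.2 and 1610 in Control2 and 8.43 and 11440 in A485. CXCL3 had 15.0 and 279 in Control2 and 6.74 and 3845 in A485. For each of these 3 genes A485 held both the lowest and the highest library of the experiment. CXCL2 behaved alike in its values, with 15.0 and 117 in Control2 and 6.74 and 1258 in A485. CXCL6 did not: it had 10.7 and 132 in Control2 and 3.37 and 78.4 in A485, so its A485 replicate 2 value was not the highest. The A485 replicate 2 library therefore combined the highest CXCL1, CXCL2, CXCL3 and CXCL8 counts of its experiment with IL6, IL1A, IL1B, LIF and CCL2 counts below those of both controls.

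None of the 5 CXC chemokines passed the test after A485, with adjusted p between 0.701 and 0.936 and standard errors between 1.66 and 3.37 on the log2 scale. Within replicate number 1 all 10 genes of the set were lower after A485. Within replicate number 2, 6 of 10 were lower and CXCL1, CXCL2, CXCL3 and CXCL8 were higher, by 2.83, 3.41, 3.78 and 1.41 on the log2 scale. Over all genes tested 37.4% were lower in both numbers and 24.4% had opposite signs in the 2 numbers. The direction of the fold changes rested on single libraries. Without A485 replicate 2 the CXCL1 value was -4.64 and the CXCL8 value -7.12, and without A485 replicate 1 they were 5.61 and 3.38. For CXCL8 the scale also set the sign: the log2 fold change was -1.87, while the mean count was higher after A485 (6208 ± 8769 against 2482 ± 3078, SD, n = 2). The median log2 fold change of the 10 genes was -1.82, against 0.01 over all genes tested.

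**Figure D3:**
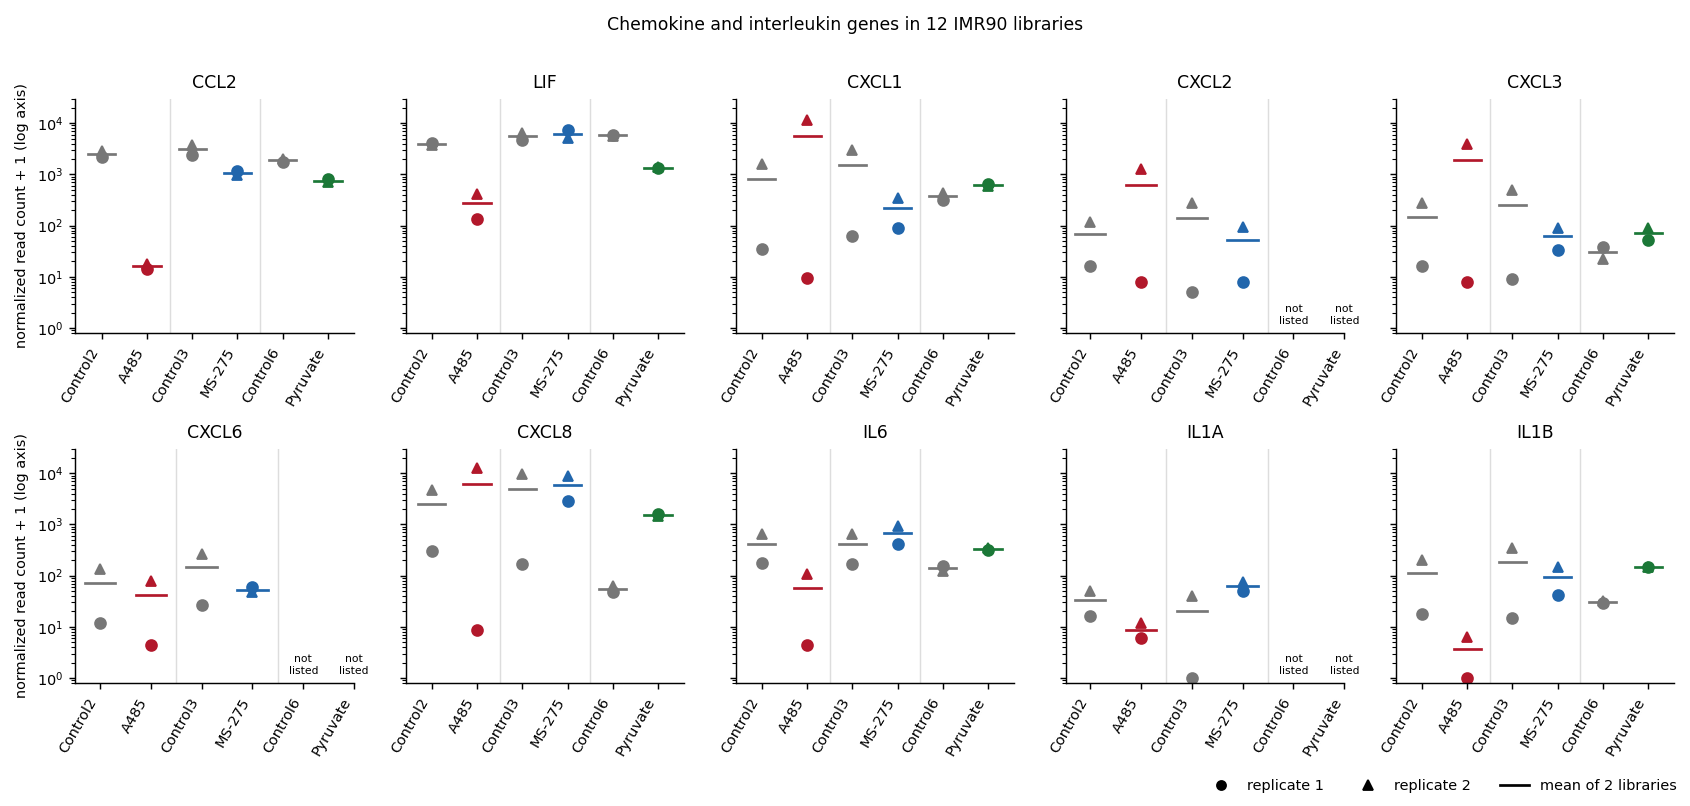
Normalized read count plus 1 (log y axis) of the 10 genes in the 12 IMR90 libraries, with the 6 groups on the x axis. Circles are replicate 1, triangles replicate 2, and horizontal lines the mean of the 2 libraries; gray groups are untreated. CCL2 and LIF lie far below their controls in both A485 libraries, whereas CXCL8 ranges from 7.59 to 12409 between the A485 libraries.

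In the MS-275 experiment none of the 10 genes was called, and 0% of the 15883 genes tested were called. At an unadjusted p under 0.05 limma found 1730 genes, of which 1 was in the set. At the adjusted threshold edgeR called 0 genes, and DESeq2 called 575, none of them in the set. A limma fit with a block on the replicate number, which removes the difference between the numbers, called 2183 genes. Among them were 4 of the set, CCL2 and CXCL1 lower and CXCL8 and IL1A higher. No label pairs the libraries, so the block was an alternative only. CCL2 had 2399 and 3769 normalized counts in Control3 and 1149 and 987 after MS-275. Both MS-275 libraries lay below both controls, as in 19.3% of all genes, and the log2 fold change was -1.50 (SE 0.37, adjusted p = 0.286, unadjusted p = 0.0104). The CCL2 differences within replicate numbers 1 and 2 were -1.06 and -1.93. IL1A had 0 and 39.4 in Control3 and 48.4 and 74.7 after MS-275. It was the gene of the set with both MS-275 libraries above both controls, as in 19.5% of all genes. Its log2 fold change was 3.27 (SE 1.80, adjusted p = 0.642). The 0 in Control3 replicate 1 allows up to 2.97 normalized counts, taking 3 reads as the limit, for counting error only. The IL1A log2 fold change was 4.92 with 0.1 added to each value in place of 1, and 1.66 with 10 added. The other 8 genes overlapped between the groups. LIF, which had 4765 and 6308 normalized counts in Control3, had 7193 and 5165 after MS-275 (log2 fold change 0.15).

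Within the replicate numbers MS-275 and Control3 differed in opposite directions for most of the set. CXCL8 had 171 and 9798 normalized counts in Control3 and 2836 and 8917 after MS-275, a difference of 4.04 on the log2 scale within number 1 and of -0.14 within number 2. CXCL1 had 60.4 and 2989 in Control3 and 89.1 and 351 after MS-275, with differences of 0.55 and -3.09. CXCL3 had 7.92 and 500 in Control3 and 31.9 and 89.7 after MS-275, with differences of 1.88 and -2.47. For all 3 chemokines the MS-275 libraries lay between the control libraries.

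CXCL2 had 3.96 and 281 in Control3 and 6.78 and 94.7 after MS-275. CXCL6 had 25.7 and 266 in Control3 and 58.1 and 46.8 after MS-275. IL1B had 13.9 and 350 in Control3 and 40.7 and 146 after MS-275. All 3 again had both treated values inside the control range. IL6 and IL1A were the 2 genes higher after MS-275 within both numbers, as were 38.6% of all genes tested. IL6 had 169 and 664 in Control3 and 406 and 938 after MS-275, differences of 1.26 and 0.50. In all, 9 of 10 genes were higher after MS-275 within number 1 and 8 of 10 were lower within number 2. Opposite signs occurred in 7 of 10 genes, against 21% of all genes tested. The count of calls depended on which control library was kept. Without Control3 replicate 1, CXCL1, CXCL2 and CXCL3 were called lower, at -4.07, -3.37 and -3.20. Without Control3 replicate 2, CXCL8 and IL1A were called higher, at 4.87 and 5.94. The same genes were not called without Control3 replicate 1, where CXCL8 was at -0.96 and IL1A at 0.60.

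**Figure D4:**
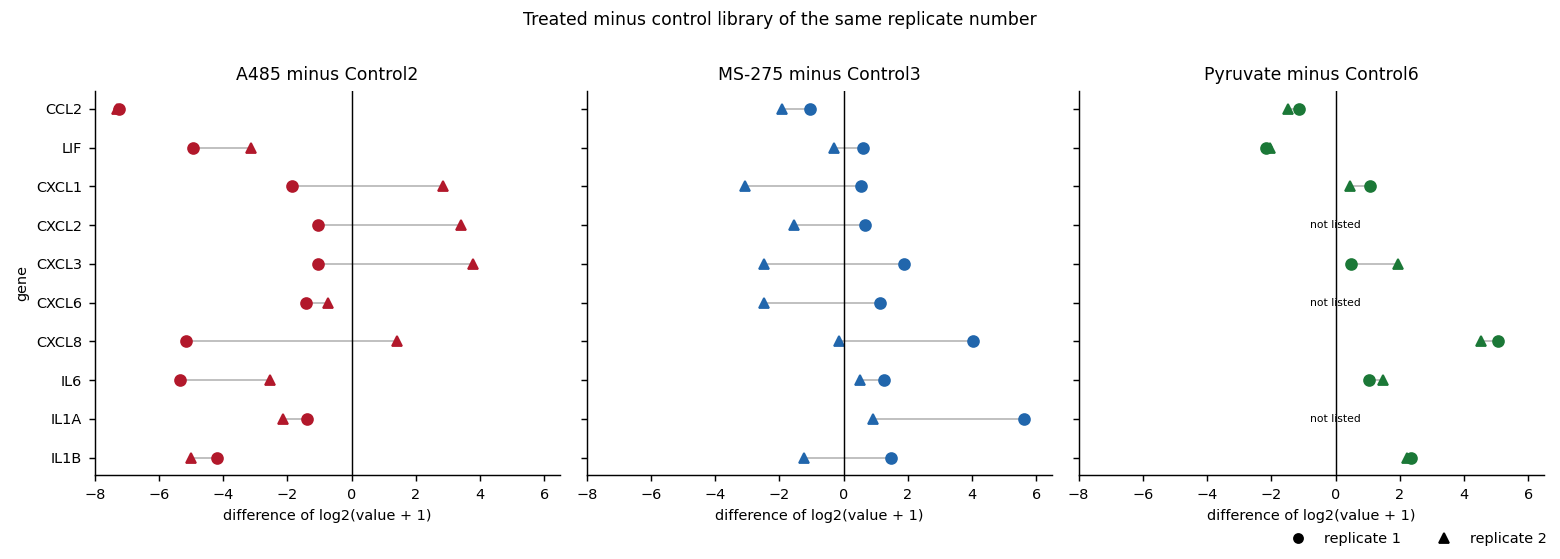
Treated minus control difference of log2(value + 1) on the x axis for each gene on the y axis, within replicate number 1 (circles) and replicate number 2 (triangles), in the 3 experiments. Gray lines join the values of a gene. The pairs straddle 0 for 4 of 10 genes after A485 and 7 of 10 after MS-275, and for none of 7 after pyruvate.

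In the pyruvate experiment the replicates lay close together and the set split by gene. CXCL8 rose most, from 46.2 and 60.8 normalized counts in Control6 to 1580 and 1435 after pyruvate. Its mean went from 53.5 ± 10.3 to 1508 ± 102 (SD, n = 2), 28.2-fold higher, with a log2 fold change of 4.80 (SE 0.18, adjusted p = 1.12e-09). IL1B rose from 28.5 and 30.4 to 148 and 145, 4.99-fold higher (log2 fold change 2.28, SE 0.32, adjusted p = 4.37e-05). IL6 rose from 152 and 125 to 317 and 352, 2.41-fold higher (log2 fold change 1.27, SE 0.19, adjusted p = 8.18e-05). The groups did not overlap for any of these 3 genes.

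CXCL3 was called higher with a wider error: it had 36.3 and 21.7 normalized counts in Control6 and 51.1 and 86.8 after pyruvate (log2 fold change 1.22, SE 0.45, adjusted p = 0.0278). The call was lost without Control6 replicate 2 (0.86, adjusted p = 0.0855) and without Pyruvate replicate 2 (0.84, adjusted p = 0.271). CXCL1 had 313 and 436 normalized counts in Control6 and 658 and 592 after pyruvate. Its log2 fold change of 0.75 (SE 0.16, adjusted p = 0.00128) passed the smaller of the 2 minimums that the study's methods name. It stayed under the larger one, which a call needed here.

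LIF and CCL2, the most abundant genes of the set in Control6, fell. LIF went from 5997 and 5716 normalized counts to 1327 and 1383, 4.32-fold lower (log2 fold change -2.11, SE 0.071, adjusted p = 5.66e-10). CCL2 went from 1761 and 2017 to 792 and 714, 2.51-fold lower (log2 fold change -1.32, SE 0.10, adjusted p = 2.80e-07). Thus 4 of 7 genes were called higher and 2 lower, where 31% of the 12013 genes tested were called higher and 23.1% lower. With scaling to equal totals 71.7% of all calls were higher, against 57.3% as reported, and the median of all genes moved to 0.30. CXCL1 then reached the threshold (1.06). Under quantile normalization, which moved that median to -0.17, CXCL3 (0.87) and IL6 (0.63) were no longer called. Removing a trend on GC content and transcript length gave 3.80 for CXCL8, whose transcript has the lowest GC content of the set at 32.5%, and -1.20 for LIF, which has the highest at 57.1%.

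All 7 listed genes had both pyruvate libraries on 1 side of both controls, 5 above and 2 below. With replicates this close such separation was common, at 45.2% of all genes above and 45.3% below. The median log2 fold change of the 7 genes was 1.22, against -0.01 over all genes tested. After pyruvate CCL2 and LIF moved in the same direction as after A485, with smaller fold changes, and IL6 and IL1B rose where their A485 log2 fold changes were negative and did not pass the test. The difference between the experiments was not tested.

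**Figure D5:**
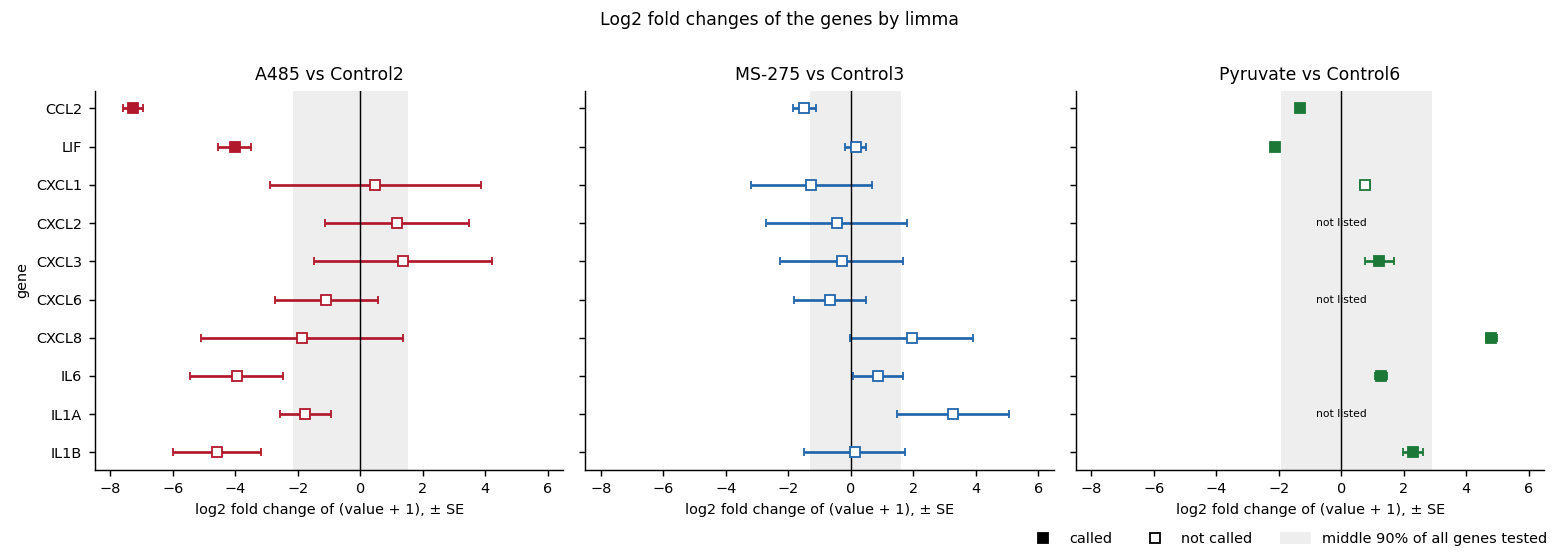
Log2 fold change of (value + 1) from limma on the x axis, with its standard error as a bar, for each gene on the y axis in the 3 comparisons. Filled squares were called, open squares were not, and the gray band holds the middle 90% of all genes tested. In this fit without a block on the replicate number, CCL2 and LIF were called lower after A485 and no gene after MS-275. After pyruvate 4 genes were called higher and 2 lower.

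The order of the genes by level, as normalized counts per kilobase of annotated exon, also changed. In Control6 LIF came first at 1477 to 1549 per kilobase, followed by CCL2 at 910 to 1042 and CXCL1 at 230 to 320. IL6 at 28.9 to 35.2 and CXCL8 at 17.8 to 23.5 came next, and then CXCL3 and IL1B, the only neighbors in that order whose ranges overlapped. After pyruvate CXCL8 came first at 555 to 610 per kilobase, followed by CXCL1 at 435 to 483, CCL2 at 369 to 409 and LIF at 343 to 357, with no neighbors overlapping. In Control2 CCL2 had the highest mean, at 1141 to 1471 per kilobase, and LIF followed at 949 to 1042, without overlap. CXCL8, next by mean at 118 to 1800, was above CCL2 in replicate 2. Every later pair of neighbors in Control2 overlapped, and IL1A had the lowest mean, at 7.43 to 24.9. After A485 CCL2 lay at 6.97 to 8.75 per kilobase and LIF at 34.0 to 109, whereas CXCL1 ranged from 6.19 to 8400. In Control3 all neighbors overlapped, with CXCL8 at 66.2 to 3786, CCL2 at 1240 to 1948 and LIF at 1231 to 1630. After MS-275 CXCL8 at 1096 to 3446 and LIF at 1334 to 1858 overlapped, and CCL2 followed apart from both at 510 to 594.

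Other cytokine genes were examined as a list of 35, of which 19, 22 and 10 could be tested after A485, MS-275 and pyruvate. After A485, 4 of 19 were called lower and 1 higher, where 7.06% of all genes were called lower and 3.31% higher, and the median log2 fold change was -0.91. CXCL12, the CXCR4 ligand made by stromal cells, fell from 6420 and 1202 normalized counts to 54.8 and 55.2 (log2 fold change -5.63, SE 0.73, adjusted p = 0.00888). CLCF1, a gp130 cytokine like LIF, fell from 563 and 370 to 37.9 and 26.7 (-3.80, SE 0.41, adjusted p = 0.00521). IL16, a chemoattractant of CD4+ cells, fell from 123 and 348 to 0 and 4.45 (-6.48, SE 0.99, adjusted p = 0.0141). CXCL16, a transmembrane chemokine that can be shed, was the 1 called higher, from 77.1 and 50.2 to 251 and 585 (2.60, adjusted p = 0.0275). Of the 19, 8 had both A485 libraries below both controls and 3 above, against 30.7% and 30.4% of all genes. Among the rest, A485 held both the lowest and the highest library for some genes, as for CXCL8. CXCL5 had 54.6 and 222 in Control2 and 16.9 and 969 in A485, and CCL20 had 4.28 and 17.1, then 0 and 1438. After pyruvate 3 of 10 were called lower and 1 higher, where 23.1% of all genes were called lower and 31% higher, with a median of -0.40. The lower ones were IL12A (-2.98), the gp130 cytokine CTF1 (-1.99) and TSLP (-1.63). The higher one was CXCL12, which rose from 11.8 and 33.6 to 145 and 139 (2.77, adjusted p = 0.0002). CXCL16, CXCL5, CCL20 and this value of CXCL12 were named after their values were seen. After MS-275 none was called, and the median was -0.17.

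Receptors for these ligands were listed for 7 of 13 genes in each experiment, and CXCR1, CXCR2 and CCR2 were not among them. After A485, IL6R, which binds IL6 itself, fell from 966 and 865 normalized counts to 166 and 265 (-2.12, SE 0.30, adjusted p = 0.0117) and no other receptor was called. After pyruvate 4 of 7 receptors were called higher and 1 lower, where 31% of all genes were called higher and 23.1% lower, with a median log2 fold change of 1.35. IL6ST rose from 757 and 701 to 4854 and 4886 normalized counts (2.74, SE 0.080, adjusted p = 2.06e-10). OSMR, the oncostatin M receptor, rose by 1.35 and IL1R1 by 2.04 on the log2 scale. The 1 called lower was IL6R, which fell from 599 and 549 to 217 and 223 (-1.38, adjusted p = 3.78e-06). This value of IL6R was named after it was seen. After MS-275 none of the 7 was called, and the median was 0.53.

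Among 17 genes of IL-1 processing and signalling, 1 of 15 tested was called after A485, lower: CAPN2, a calpain subunit (-1.53, adjusted p = 0.0212). Of all genes tested, 7.06% were called lower and 3.31% higher after A485. After pyruvate 6 of 14 were called higher and 4 lower, where 31% of all genes were called higher and 23.1% lower. CASP4, an inflammatory caspase, rose by 2.30 on the log2 scale, while the calpain CAPN1 (-1.36) and the receptor kinase IRAK1 (-1.06) fell. Among 16 genes of the NF-kB and C/EBP factors and their regulators, 1 was called after A485. It was CEBPB, a factor that binds promoters of acute phase and cytokine genes, and it fell from 4154 and 4023 normalized counts to 1219 and 1010 (-1.88, SE 0.18, adjusted p = 0.00371). After pyruvate 3 of 14 were called higher and 3 lower, among them CHUK, an I-kB kinase (2.65), RELA, the main activating NF-kB subunit (-1.23), and CEBPD (-1.01).

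Among 9 genes that act downstream of gp130, SOCS1, a feedback inhibitor, was the 1 called after A485 (-2.84, adjusted p = 0.00777). After pyruvate 3 were called higher and 1 lower, including PTPN11 (2.55), the kinase JAK1 (1.88) and PIAS3 (-1.01). Among 8 genes whose proteins bind or cut AU-rich and other unstable mRNAs, ZFP36L2, which promotes decay, was the 1 called after A485 (-2.61, adjusted p = 0.00358). After pyruvate HNRNPD (1.15) and RC3H1 (1.80) were called higher and none lower. After MS-275 no gene of these lists was called. The median log2 fold changes of these 4 lists lay between -0.36 and -0.06 after A485, between -0.24 and -0.08 after MS-275 and between -0.42 and 0.43 after pyruvate, and the shares of all genes called are those given for each experiment.

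Markers of other cell types were low, and several differed between groups. The summed endothelial markers went from 508 to 1289 normalized counts in Control2 to 127 to 189 in A485, and from 358 to 481 in Control6 to 1448 to 1469 in Pyruvate. TEK made up most of that sum in each group and was called lower after A485 and higher after pyruvate. VWF was called lower in both, from 34.3 and 102 to 0 and 0 after A485 and from 164 and 104 to 33.4 and 46.2 after pyruvate, and PECAM1 and CDH5 were not listed in any experiment. Summed epithelial markers were at most 298 normalized counts in any library. After A485, EPCAM was called higher (64.2 and 47.7 to 208 and 177) and KRT19 lower (105 and 40.4 to 1.69 and 7.13). The sum of the 10 fibroblast markers was 1860000 to 2238000 in Control2 and 556700 to 669300 in A485. It also differed between replicates of a group, at 886900 to 1911000 in Control3 and 780000 to 1831000 in MS-275. In Control6 it was 1187000 to 1277000 and in Pyruvate 1020000 to 1031000. In such bulk samples, fewer cells of a type and less RNA per cell cannot be told apart. Leukocyte markers summed to 32.1 to 42.8 normalized counts in Control2 and 41.3 to 55.2 in A485 and were not listed in the pyruvate experiment, where CXCL8 reached 1580. The part of these markers in the results was not tested.

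The 7 genes listed in all 12 libraries were also compared by pattern, after each log2 value was centered on the mean of its experiment's controls. Pearson's r of a gene with the mean of the other 6 was 0.91 for IL6, 0.857 for IL1B and 0.842 for CXCL8. It was 0.613 for CXCL1, 0.556 for CXCL3, 0.452 for LIF and 0.443 for CCL2. Among the 11994 genes listed in all 12 libraries, the 5 outside the set with the highest r to the mean pattern of the 7 were TRIM58 (0.936), JPH2 (0.913), RAB3IL1 (0.911), ZC3H12A (0.91) and EPSTI1 (0.907). ZC3H12A encodes an endonuclease that degrades IL6 mRNA. The mean pattern of the 7 was -5.62 in A485 replicate 1 and between -1.77 and 1.77 in every other library. That 1 library, where IL6 had 4 reads and IL1B 0, therefore weighs heavily in these r values. The 12 points came from 3 experiments, and points of an experiment share their normalization and controls, so these values are descriptions and carry no test.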

How the data were processed

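RNA was extracted with TRIzol and sequenced as paired-end libraries. Per the study's methods, the authors trimmed reads with Trim Galore 0.6.10, aligned them to hg38 with HISAT2 2.2.1 and SAMtools 1.7, counted them per gene with featureCounts 2.0.6, and scaled the counts by size factors from DESeq2 1.34.0. The deposited values are a signal, namely counts divided by 1 size factor per library, in 3 separately normalized experiments. The annotation and strand setting are not given in the sources used here. Every value was a whole multiple of 1 read (within 0.01 of a read, 100% of values), so reads were recovered for count tests. The libraries of the A485 experiment held 39194881 to 40557867 reads, those of the MS-275 experiment 41077361 to 46971227 and those of the pyruvate experiment 24179065 to 30156436. For each listed gene, the second highest of its read counts in the libraries of an experiment was 10 or more (20 or more in the pyruvate experiment). Mouse muscle libraries were not used here.

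Groups came from the titles. The main test was limma 3.58.1 (R 4.3.3), with an intensity trend in eBayes, on log2(value + 1), without covariates, two-sided, over genes with a mean of at least 10, adjusted by Benjamini-Hochberg over all genes tested. Genes were called at an adjusted p under 0.05 and an absolute log2 fold change above 1, the stricter of the fold change minimums in the study's methods. A fold change on this scale understates that of genes with few reads. No label says that replicates were separate cultures, so p-values measure the spread between these libraries, which may be technical. No replicate pair agreed within sampling noise (chi-square per gene 4.54 to 472).

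Alternatives were pseudocounts of 0.1 and 10, no filter or a mean of at least 50, quantile normalization, equal library totals, no trend, a block on the replicate number, recovered reads tested with edgeR 4.0.16 and with DESeq2 1.42.0, removal of a GC and length trend, and leaving out each library. Limma as in the main test, edgeR and DESeq2 were first run on simulated data holding known changes, without a shared effect of the replicate number. The other alternatives were not run on simulated data. The named genes were the 10 of the set, in each list the called genes with the smallest adjusted p (at most 3 per list and comparison), and the 5 genes of most similar pattern over 12 libraries. The genes and lists were chosen with earlier results of these data known. Positions and exon lengths came from GENCODE v44 (hg38) and start-site windows from RefSeq (GRCh38.p14), where 8 of the 10 genes matched; CCL2 and LIF had no entry. Tables were handled with pandas 2.3.3 and numpy 2.4.6 in Python 3.11.15, and plots drawn with matplotlib 3.10.9.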

Additional observations from a re-analysis of the deposited data

How the results depend on the processing

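CCL2 after A485 and LIF, CCL2, CXCL8 and IL1B after pyruvate kept their direction and their call under every alternative run. The number of genes called after A485, 1667 as reported, was 2585 with equal library totals, 840 without the variance trend and 229 to 1284 when 1 library was left out, lowest without A485 replicate 1 and 301 without A485 replicate 2. Of the set, 2 genes were called after A485, 1 without the trend, 4 with a replicate block and 2 to 3 when 1 library was left out. After MS-275, 0 genes were called as reported, 2183 with a replicate block, 575 by DESeq2 and 33 to 444 when 1 library was left out. Of the set, 0 were called as reported, 4 with a replicate block (CCL2 and CXCL1 lower, CXCL8 and IL1A higher) and 0 to 3 when 1 library was left out. After pyruvate 6503 genes were called and 3678 with the GC and length trend removed. Of the set, 6 were called as reported and 5 to 6 when 1 library was left out.

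The deviations of libraries with the same replicate number correlated at r = 0.316 in the A485 experiment, 0.728 in the MS-275 experiment and 0.002 in the pyruvate experiment. With only 2 pairs per experiment and no label that pairs them, the block was not taken as the main design. With the block, CCL2 after MS-275 was at an adjusted p of 1.23e-06, CXCL1 at 0.0455, CXCL8 at 0.00624 and IL1A at 0.00424. It added IL6 (adjusted p = 0.00533) and IL1B (adjusted p = 0.00464) to the calls after A485. IL1B after A485 was also called by DESeq2 (adjusted p = 0.00118).

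Signs that turned belonged to genes without a call in the results as reported, although CXCL1, CXCL2, CXCL3 and CXCL8 after MS-275 were called in fits that left out 1 control library. CXCL8 after A485 was 1.36 by edgeR and 1.32 by DESeq2. IL1B after MS-275 was -0.0573 with a pseudocount of 10, -0.0208 with equal totals, -0.98 by edgeR and -0.96 by DESeq2. When 1 library was left out, the A485 log2 fold changes ranged from -4.64 to 5.61 for CXCL1, -2.49 to 4.85 for CXCL2, -3.11 to 5.85 for CXCL3, -3.18 to 1.01 for CXCL6 and -7.12 to 3.38 for CXCL8. Without a change of sign they ranged from -6.27 to -1.63 for IL6, -6.33 to -3.26 for IL1B, -2.61 to -0.93 for IL1A and -4.86 to -3.19 for LIF. Those for MS-275 ranged from -4.07 to 1.54 for CXCL1, -3.37 to 2.46 for CXCL2, -3.20 to 2.62 for CXCL3, -2.33 to 0.99 for CXCL6, -0.96 to 4.87 for CXCL8, -0.11 to 1.86 for IL6, 0.60 to 5.94 for IL1A, -2.16 to 2.40 for IL1B and -0.0861 to 0.39 for LIF. The cause was not tested, beyond the fewer samples of such fits. IL1B was under the filter without Control2 replicate 2.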
